A study of Mus musculus with 12 samples.

Results

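The 76 cytosolic ribosomal protein genes of the table, 46 of the large and 30 of the small subunit, were read at nearly the same level in CD11c-enriched lymph node cells of wildtype and APOE-KO mice. Together they took 10.3% ± 0.718 (SD, n = 6) of the counts outside the Rn45s row in wildtype and 10.6% ± 0.503 (SD, n = 6) in APOE-KO libraries. The members were all gene symbols that start with Rpl, Rps or Rplp, go on with a number and at most one of the letters a, l, x or y, and had at least 60 reads summed over the 12 libraries. Of the 24499 symbols in the table, 81 had such a name and 76 reached 60 reads. Just inside the limit lay Rpl34 with 95 reads and Rpl39l with 133, and just outside it Rpl32l with 57 and Rpl3l with 35. Rps27 had 10 reads, and Rpl26 and Rpl10l had none. A filter on low counts kept 74 members for testing, 44 large and 30 small, and left out Rpl34 and Rpl39l.

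The libraries came from mice injected with E0771-cOC tumour cells, whose tumour-draining lymph nodes were taken on day 9, digested, and enriched for CD11c+ cells on magnetic beads. CD11c, the product of Itgax, is an integrin of dendritic cells and some macrophages. The comparison was of 6 libraries of C57BL6 wildtype mice with 6 of APOE-KO mice, named for the knockout of apolipoprotein E, a carrier of lipids between cells. Both groups carried the tumour. The labels used here give no age, strain background of the knockout or number of animals per library, so a p-value speaks of the spread among these libraries, part of which may be technical. Apoe itself checked the labels, at 481 ± 45.7 CPM (counts per 1e6 of a library size scaled with TMM factors; SD, n = 6) in wildtype and 5.81 ± 2.95 (SD, n = 6) in APOE-KO libraries.

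Library totals ran from 2381477 to 4898360 counts. The Rn45s row, which stands for the long precursor of ribosomal RNA, took between 2.71% of the counts (wildtype library 3) and 32.2% (wildtype library 1). These 2 libraries and APOE-KO library 5 stood apart in an earlier look at all genes, and the counts of members that passed are given with and without them. Its share did not differ detectably between genotypes (14.7% ± 10.5 against 15.7% ± 4.69, SD, n = 6 each; exact two-sided permutation p = 0.844). CD11c beads do not give pure cells. B cell markers summed to 784.9 to 1020 CPM in wildtype and 638.1 to 804.4 in APOE-KO libraries, and T cell markers to 676.4 to 762.5 and 635.5 to 783.3. Epithelial markers summed to 96.38 to 163.2 and 8.687 to 104.8 CPM, with 1 of 6 tested passing, lower in APOE-KO. Markers of plasmacytoid dendritic cells, which make type I interferon, summed to 1238 to 2713 CPM in wildtype, highest in wildtype library 1, and 974.9 to 1309 in APOE-KO libraries. Of the 7, 3 passed by edgeR, all lower in APOE-KO (Siglech, Klk1 and Cox6a2). Macrophage markers summed to 965.6 to 1162 and 827.8 to 1084 CPM, and of 10, 2 were higher and 4 lower by the same test. Conventional dendritic cell markers summed to 6353 to 7716 and 6704 to 7876 CPM, and of 12, 2 were higher and 0 lower. Cycling cell markers summed to 548.1 to 771.3 and 506.8 to 596.3 CPM, and of 8, 0 passed in either direction. None of these markers is at 0 in the table. The part of these cells in the results was not tested, apart from a fit with B and T cell levels. Fewer cells of a type and less RNA per cell cannot be told apart in such bulk libraries.

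Each cytosolic ribosome holds one large subunit, which joins amino acids, and one small subunit, which reads the messenger RNA, and each is built in the nucleolus from ribosomal RNA and one copy of most of its proteins. Cells keep the messages of these proteins in step. Many of them begin with a C followed by a run of C and T bases, the terminal oligopyrimidine (TOP) tract, through which mTORC1 and LARP1 control their translation. The counts here measure message level, not translation.

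The start-site tract is a feature that the choice of members did not use. RefSeq start windows (build GRCm38.p6) were found for 55 members, with 66 annotated starts. A C at the annotated start, with at least 5 unbroken C or T bases counted from it, stood at 12 of the 66 starts (18.2%), against 2.51% of the 32851 starts in the table. A C within 5 bases of the start, with at least 5 such bases counted from it, was found at 29 (43.9%), against 18.3%. In both counts that C may lie inside a longer run that begins before it, with C or with T. Annotated starts can lie some bases away from the true one, so no run at the annotated base says only that these letters are not there. Searched on both strands of the windows from 250 bases before to 50 after the start, CCGGAAG, a core bound by ETS factors, was present at 24 starts (36.4%) against 8.86% of all starts. AAGATGGC, a core of the YY1 motif, was present at 6 (9.09%) against 2.75%, but these 6 starts belong to only 4 genes. All annotated starts of Rpl35a, whose windows overlap, are among them. The TATA box word TATAAA was present at 6 (9.09%) against 13.6%. The windows run from 10 bases before the start, and capitals mark the unbroken run of C and T from the annotated start. They are shown for 2 of the most abundant members, for some members with low p by genotype or by Rn45s share, and for members with long runs. Members with a run are over-represented here, since the longest run at an annotated start had a median of 0 bases over the 55 members. Not shown are the abundant Rpl37 and Rpl37a (runs of 0 and 1 bases) and, of low p, Rps26 and Rps15 (0 each). Rps24 and Rps21 each have another annotated start, with runs of 0 and 1 bases. Rps27l and Rpl6, near the ends of the range of fold changes, have no such run at the start shown.
Rplp2 (chr7:141447641-141447670, plus strand): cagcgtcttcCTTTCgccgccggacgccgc
Rps21 (chr2:180257369-180257398, plus strand): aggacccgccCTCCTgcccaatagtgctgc
Rps24 (chr14:24490668-24490697, plus strand): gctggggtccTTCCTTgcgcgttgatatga
Rps6 (chr4:86857348-86857377, minus strand): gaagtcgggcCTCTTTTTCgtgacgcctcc
Rpl7a (chr2:26910797-26910826, plus strand): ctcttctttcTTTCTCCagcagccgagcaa
Rpl35 (chr2:39005112-39005141, minus strand): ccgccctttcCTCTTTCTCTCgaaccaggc
Rpl15 (chr14:18270967-18270996, minus strand): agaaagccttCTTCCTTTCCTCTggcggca
Rps27l (chr9:66946076-66946105, plus strand): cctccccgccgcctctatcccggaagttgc
Rpl6 (chr5:121204491-121204520, plus strand): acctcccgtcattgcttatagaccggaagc

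All 76 members matched GENCODE vM21 (GRCm38, the assembly that mm10 also names), on 19 chromosomes, with 14 on chromosome 7. One member went against its label: Rps4l is annotated as a transcribed processed pseudogene, and it entered by its name alone. Another annotated gene overlapped 32 members on the same strand and 22 on the opposite strand.

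Levels differed widely between members. In a library read from the end of the transcript, counts do not grow with length, so CPM are set side by side without a length correction. The order is one of counts, and how closely it follows message level across genes was not tested. Among tested members 31 had a mean of 1000 CPM or more, 14 large and 17 small, 39 lay between 100 and 1000, and 4 (Rpl15, Rpl29, Rpl30 and Rps4l) lay below 100. The median was 919 CPM, and the 10 most abundant members made up 39.6% of the summed level. Rplp1, one of the acidic stalk proteins that recruit elongation factors, had the highest mean over the 12 libraries, 5961 CPM, with Rps21 next at 5847. In wildtype alone the order of the 2 was the other way round, and their difference was below their spread. Rplp1 ran from 4788 to 7179 CPM in wildtype (median 5246) and from 5294 to 7211 in APOE-KO libraries (median 6394). Rps21, a small-subunit protein, ran from 4834 to 6246 (median 5803) and from 5270 to 6640 (median 5918). The group ranges of both overlapped. Next came Rps29 (4082 ± 411 in wildtype, 4355 ± 355 in APOE-KO, SD, n = 6 each), Rps14 (2995 ± 273 and 3051 ± 185), Rplp2 (3020 ± 555 and 2903 ± 425), Rpl37a (2826 ± 467 and 2802 ± 194), Rps20 (2659 ± 237 and 2903 ± 372) and Rpl37 (2705 ± 286 and 2810 ± 263). Neighbours in the order of these 6 differed by less than their SD, except that Rps29 lay above Rps14 and Rplp2. Rplp0, the stalk protein on which the acidic pair is anchored, was lower than either, at 1825 ± 252 and 1893 ± 287 CPM.

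The symbols with the fewest reads include core proteins such as Rps27, Rpl26, Rpl30 and Rpl34. Reads of near-identical copies can be split or dropped by counting, and the sources used here do not say how reads with several matches were treated. Within the last 200 bases of the transcript, 45 members shared at least one 50-base word with a gene elsewhere in the annotation, and 44 with a pseudogene. Rps27, at 10 reads, shared 100% of these words, Rpl26 67.5%, Rpl30 66.9% and Rpl34 46.4%. Rpl3l and Rpl39l, copies known from muscle and testis, shared no word and had 35 and 133 reads. Rpl10 and Rpl36a, like Rps27, shared 100% and had 12251 and 52749 reads. The rank correlation of reads with the shared percentage over the 76 members was -0.126, a description across genes. Whether shared sequence lowered any of these counts was not tested. Members with no shared word numbered 31 and had a median of 39797 reads, those with up to 50% numbered 17 with 59138, those above 50% but below 100% numbered 25 with 29999, and the 3 with all words shared had 41186. Levels of the members with shared words are uncertain.

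**Figure D1:**
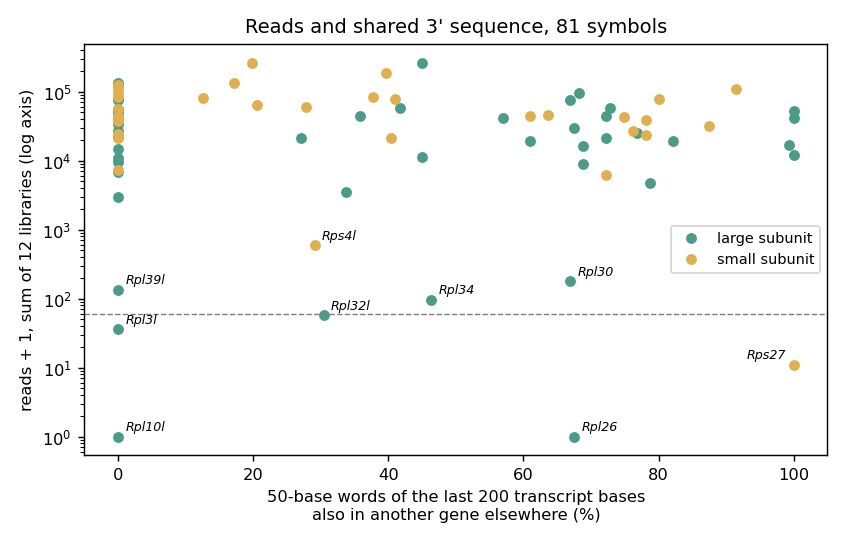
Reads summed over the 12 libraries, plus 1 (vertical axis, logarithmic, with a dashed line at 60) against the percentage of 50-base words in the last 200 transcript bases that also occur in another gene elsewhere in the annotation (horizontal axis), one point for each matching symbol, coloured by subunit. Points with few reads include Rpl10l, Rpl3l and Rpl39l (0, 35 and 133 reads) with no shared word. They also include Rpl34 at 46.4%, Rpl30 at 66.9%, Rpl26 at 67.5% and Rps27 at 100% (95, 178, 0 and 10 reads). Rpl10 and Rpl36a, at 100%, have 12251 and 52749 reads.

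Name-stem pairs differed strongly in level. Rpl39, a small protein lining the exit tunnel, had 466 ± 37.8 CPM in wildtype and 533 ± 78.3 in APOE-KO libraries (SD, n = 6 each). Rpl39l, its copy known from testis, had 0 to 27 reads in wildtype and 2 to 20 in APOE-KO libraries. Rps4x, the X-linked form of a small-subunit protein, had 481 CPM in wildtype and 453 in APOE-KO libraries on average. Rps4l had 14.4 ± 5.46 and 11.9 ± 3.71. Rpl3, which lies near the catalytic centre, had 397 ± 67.8 and 444 ± 71.5, and Rpl3l, its copy known from muscle, had 35 reads in all. Rpl10, which completes the large subunit late in its assembly, had 264 and 282 CPM on average, while Rpl10l had no read.

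Set against genotype, no member passed. By edgeR's quasi-likelihood test, 0 of 74 tested members had a Benjamini-Hochberg adjusted p below 0.05, while 160 of all 10714 tested genes did (1.49%), 116 of them higher in APOE-KO libraries (1.08%) and 44 lower (0.411%). DESeq2 called 297 genes (2.77%) and limma-voom 167 (1.56%), and neither called a member. At an unadjusted p below 0.05, edgeR had 5 members (6.76%), DESeq2 6 and limma-voom 6, beside 12.1%, 13.1% and 13.1% of all genes. The groups overlapped for every member tested, while they did not for 1.77% of all genes. Without wildtype libraries 1 and 3 and APOE-KO library 5, again 0 members passed. The 95% interval of the fold change lay within 1.5-fold of no change for 69 of the 74 members and within 2-fold for 73. The members whose interval passed 1.5-fold were Rps6, Rpl6, Rps4l, Rps27l and Rpl30, and Rpl30 alone passed 2-fold. The fold changes themselves ran from -0.37 (Rpl6) to 0.37 (Rpl30) on the log2 scale.

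**Figure D2:**
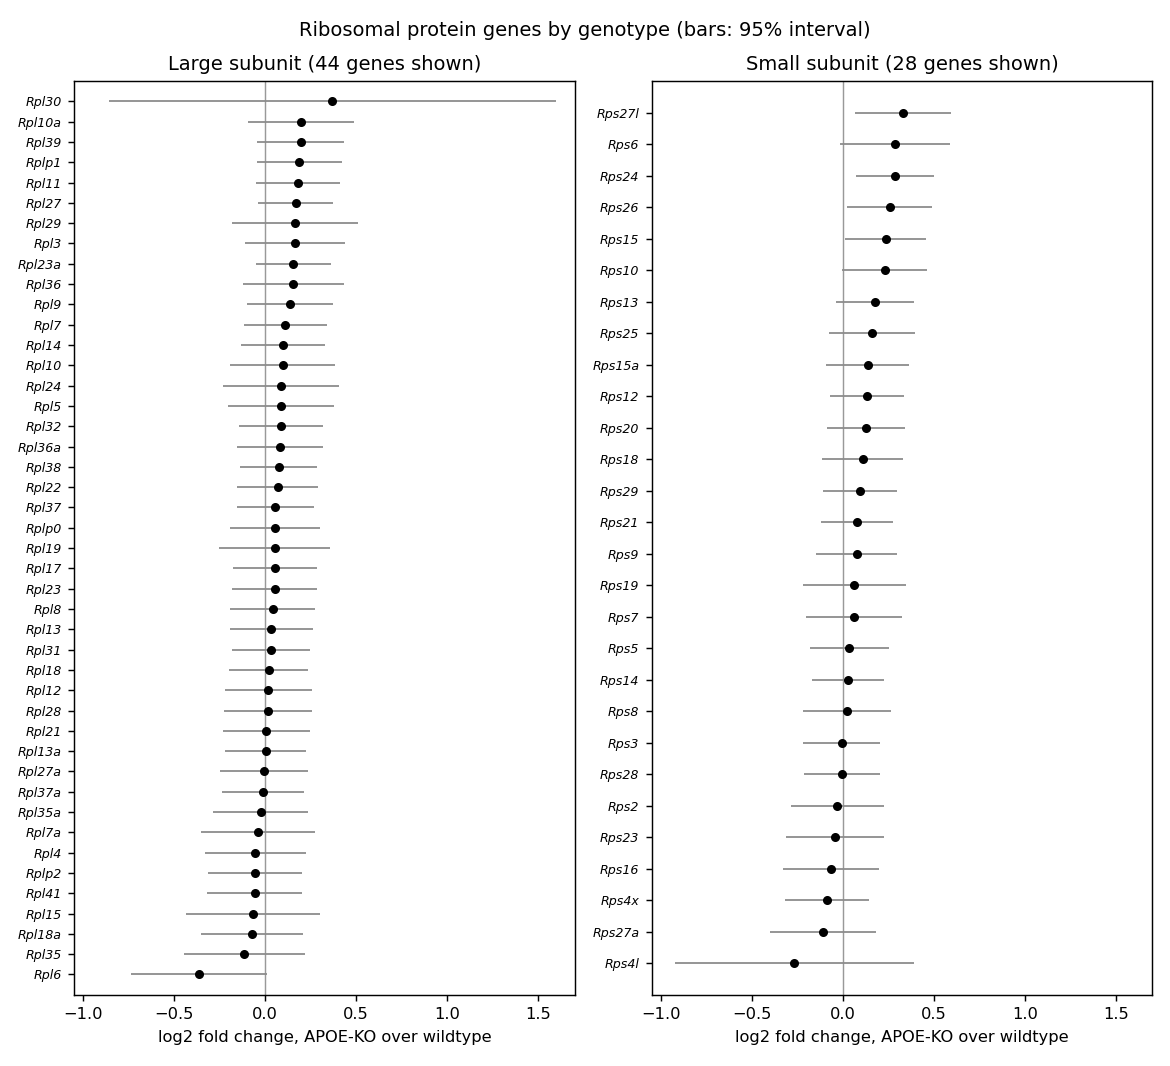
Log2 fold change, APOE-KO over wildtype, of 72 of the 74 tested members with its 95% interval, by subunit. The values run from -0.37 to 0.37, and 68 of these 72 intervals hold 0.

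More members lay above than below 0. A fold change above 0 was found for 54 of 74 members (33 of 44 large, 21 of 30 small), or 73% beside 47.2% of all genes. The median was 0.06 for members, 0.05 for the large and 0.07 for the small subunit, beside -0.02 for all genes. Without wildtype library 1 the member median was 0.03, with 48 positive, and without wildtype library 3 it was 0.10, with 59 positive. Members varied together between libraries (values below), so these signs are not separate observations. With plain library totals, which moved the median of all genes to -0.07, 39 members were positive, and with B and T cell marker levels as covariates 45 were, with a member median of 0.03. The summed B cell markers overlapped between genotypes, as given above, and of 9 tested 1 passed, Fcer2a (log2 fold change -0.69, edgeR adjusted p = 0.0470). In the fit with those covariates, as in the main one, 0 members passed.

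All 5 members with the lowest p were proteins of the small subunit, and all were higher in mean in APOE-KO libraries (6.76% of the members, beside 6.27% of all genes that were higher at an unadjusted p below 0.05). None passed the adjusted threshold, and the 4 described here are named after their values were seen. Rps24, a protein of the small subunit whose mutations are known from Diamond-Blackfan anaemia, ran from 1777 to 2046 CPM in wildtype (median 1931) and from 1889 to 2730 in APOE-KO libraries (median 2382). APOE-KO library 1 lay inside the wildtype range and the other 5 above it. The log2 fold change was 0.28 ± 0.10 (SE; edgeR adjusted p = 0.217). Rps27l, the copy of Rps27 that p53 is known to induce, ran from 119.5 to 156.5 CPM (median 146.4) and from 153 to 218.9 (median 176). Here the ranges overlapped through APOE-KO library 2, and the log2 fold change was 0.33 ± 0.13 (SE; edgeR adjusted p = 0.262).

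Rps26, also known from that anaemia, and Rps15, a protein of the head of the small subunit, followed. Rps26 ran from 1484 to 2166 and from 1735 to 2396 (0.26 ± 0.11, edgeR adjusted p = 0.352). Rps15 ran from 810.6 to 1032 and from 928.5 to 1188 (0.23 ± 0.11, edgeR adjusted p = 0.386). The ranges of each overlapped. Rps24 lies at chr14:24487125-24496959 (plus strand), Rps27l at chr9:66946086-66949516 (plus), Rps26 at chr10:128624534-128626747 (minus) and Rps15 at chr10:80292453-80294114 (plus).

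Rps6, the target of S6 kinase by which growth signalling is often read, ran from 87.1 to 147.7 CPM in wildtype (median 121.7) and from 118.9 to 174.3 in APOE-KO libraries (median 155.9). Its log2 fold change was 0.29 ± 0.15 (SE; edgeR adjusted p = 0.444), and 0.13 with the B and T cell covariates. Rpl6, a protein of the large subunit, had the lowest fold change. It ran from 123.5 to 222.3 CPM in wildtype (median 171.5) and from 65.41 to 170.8 in APOE-KO libraries (median 145.2), with the lowest value in APOE-KO library 5. Its log2 fold change was -0.37 ± 0.18 (SE; edgeR adjusted p = 0.427), -0.22 without APOE-KO library 5 and -0.15 with the B and T cell covariates. Rpl30, with 2 to 27 reads a library in wildtype and 4 to 46 in APOE-KO, had the highest fold change and the widest error (0.37 ± 0.60 SE, edgeR adjusted p = 0.875). Rps4l (-0.27), Rpl35 (-0.12) and Rps27a (-0.11), which encodes a fusion of ubiquitin with a small-subunit protein, were the lowest after Rpl6. The stalk genes had log2 fold changes of 0.05 (Rplp0), 0.19 (Rplp1) and -0.06 (Rplp2).

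**Figure D3:**
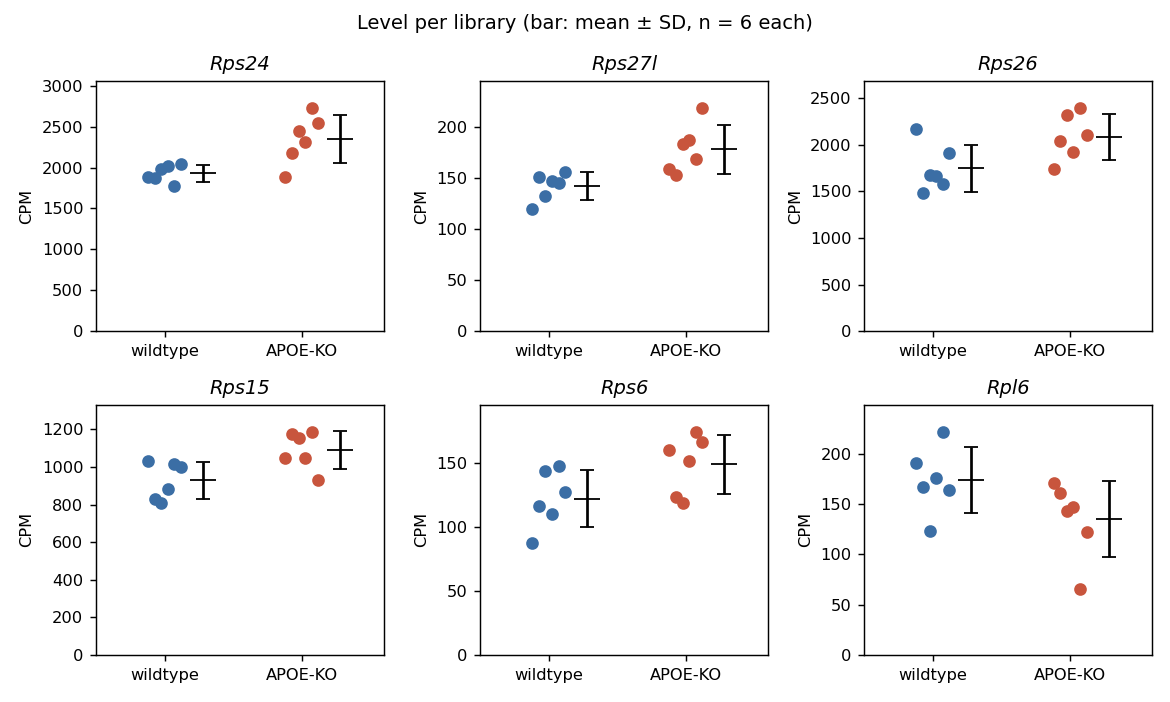
CPM (on TMM-scaled library sizes) of Rps24, Rps27l, Rps26, Rps15, Rps6 and Rpl6 in each wildtype and APOE-KO library (points), with the mean and SD (bars, n = 6 each). The ranges of the groups overlap for each gene shown, with 5 of 6 APOE-KO libraries of Rps24 above the wildtype range.

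Summed over members, the 2 groups overlapped. The sum was 86138 ± 5809 CPM (SD, n = 6; 76599 to 91710) in wildtype and 90892 ± 4536 (SD, n = 6; 84044 to 95413) in APOE-KO libraries, a difference of 0.08 on the log2 scale. It was 0.05 without wildtype library 2 and 0.04 as a percentage of the raw totals. The large subunit gave 42608 ± 2827 and 44506 ± 2245 CPM, a log2 difference of 0.06, and 0.03 without wildtype library 2. The small subunit gave 43530 ± 3019 and 46387 ± 2564, a log2 difference of 0.09, and 0.06 without wildtype library 2. The ratio of the large to the small sum was 0.979 ± 0.0147 in wildtype (0.959 to 0.997) and 0.960 ± 0.0334 in APOE-KO libraries (0.909 to 0.989; SD, n = 6 each). APOE-KO libraries 4, 5 and 6, at 0.946, 0.941 and 0.909, lay below every wildtype library, and the other 3, at 0.988 to 0.989, lay inside the wildtype range. The spread among APOE-KO libraries was thus larger than the difference of the means. No test is given for these sums, since the members were chosen with earlier results of these data known.

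**Figure D4:**
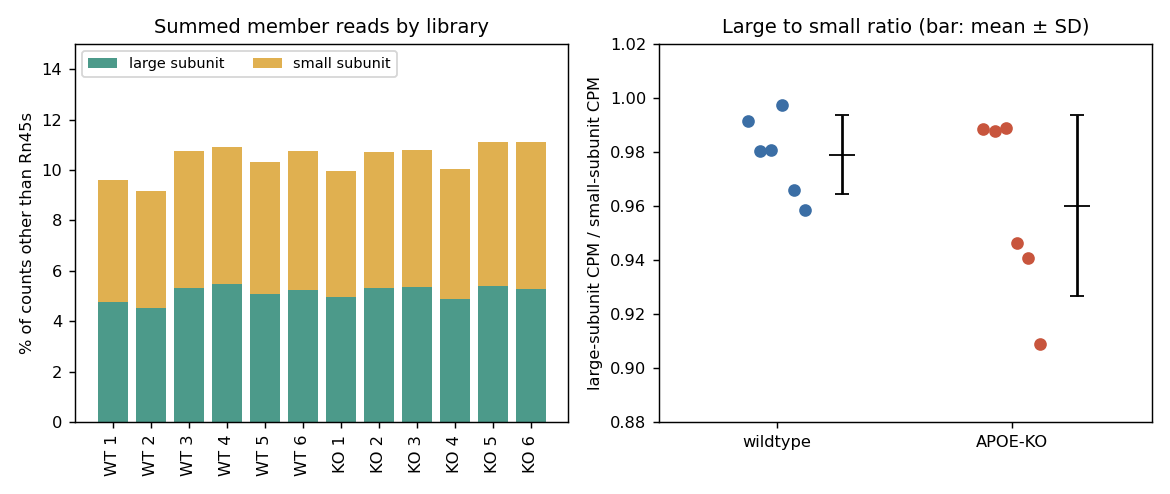
Left, percentage of the counts outside Rn45s taken by large-subunit and small-subunit members in each library (stacked bars). Right, ratio of the large to the small sum in CPM by library (points; bars, mean and SD, n = 6 each). The ratio runs from 0.959 to 0.997 in wildtype and from 0.909 to 0.989 in APOE-KO libraries.

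Within a genotype the members varied partly together. The SD of log2 CPM about the group mean had a median of 0.17 over the 70 members at 100 CPM or more and of 0.24 over the 1660 other genes with at least 100 CPM. The 2 sets share this minimum and were not matched on level, so the values are set side by side only. Rpl18 (0.07) and Rpl27 (0.09) varied least of the tested members and Rpl30 (0.95) and Rps4l (0.56) most. Rpl18 ran from 332.3 to 385 CPM in wildtype and from 336.9 to 385.1 in APOE-KO libraries. The correlation of these deviations over the 12 libraries had a median of 0.222 between pairs of members, of which 70.1% were positive, and of 0.003 between pairs of other genes. It was 0.172 within the large subunit, 0.282 within the small and 0.223 across subunits. The pairs share libraries and scaling, and the values are descriptions. Rps7 (0.451) and Rpl32 (0.425) had the highest median correlation with the other members. Rpl14 (-0.118) and Rpl6 (-0.087) had the lowest, and 5 of 70 were below 0. Wildtype library 2 had 8 of 74 members above the group mean, and wildtype library 6 had 61 of 74. The median deviation of the members was -0.15 in the former and 0.10 in the latter, and -0.14 in wildtype 1.

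The Rn45s share was the other measure set against the members, since ribosomal RNA is their partner in the ribosome. The row's reads were not split here into precursor and mature RNA. The slope was fitted on the log2 Rn45s share within genotype, with Rn45s left out of the counts. By edgeR's quasi-likelihood test, 559 of 10737 genes passed (5.21%), 356 with a positive slope (3.32%) and 203 with a negative one (1.89%). Of the 74 members 3 passed (4.05%), all with a negative slope, and 2 of them are described. Rpl7a, a large-subunit protein, had a slope of -0.24 ± 0.06 (SE; edgeR adjusted p = 0.0298), in log2 CPM for each doubling of the share. Rps27a had -0.21 ± 0.06 (edgeR adjusted p = 0.0453). Without wildtype library 1, 2 or 3, no member passed, and without wildtype library 3 the calls over all genes fell to 4. Without wildtype libraries 1 and 3 and APOE-KO library 5 together, 0 members passed, and the slope of Rpl7a was -0.03. Over the 12 fits with 1 library left out, Rpl7a passed in 9 and Rps27a in 4.

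The highest and lowest Rn45s shares both lay in the wildtype group. Rpl7a had 408 CPM in wildtype library 1 and 957 in wildtype library 3, the libraries with the highest and lowest Rn45s share, and 562 to 717 in the APOE-KO libraries, whose shares ran from 11.3% to 21.6%. Rps27a had 577 and 1021 CPM in these wildtype libraries, with 710 to 943 in APOE-KO, and peaked in wildtype library 4 (1219), whose Rn45s share was 5.17%. Rpl7a lies at chr2:26910764-26913318 (plus strand) and Rps27a at chr11:29545846-29548109 (minus), where Clhc1 lies on the other strand. Rpl35 had a slope of the same size (-0.24, edgeR adjusted p = 0.0517), as did Rpl15 (-0.25, edgeR adjusted p = 0.102). Rpl30, with few reads, had the lowest slope and the widest error (-0.31 ± 0.33 SE), while Rpl36 (0.17, edgeR adjusted p = 0.106), Rpl6 (0.15) and Rpl19 (0.14) had the highest. In all, 52 of 74 members had a negative slope, with a median of -0.04 beside -0.005 for all genes, while 22 had a positive one (29.7%, beside 48.9% of all genes). At an unadjusted p below 0.05 there were 18 members (24.3%, beside 19.8% of all genes), of which 16 had a negative slope (21.6%, beside 9.21%). DESeq2 called 7 members (9.46%, beside 8.27% of all genes). Of these, 6 had a negative slope (8.11%, beside 2.91%) and 1, Rpl36, a positive one (1.35%, beside 5.36%). By limma-voom 4 were called (5.41%, beside 6.33%), all negative (5.41%, beside 2.54%).

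**Figure D5:**
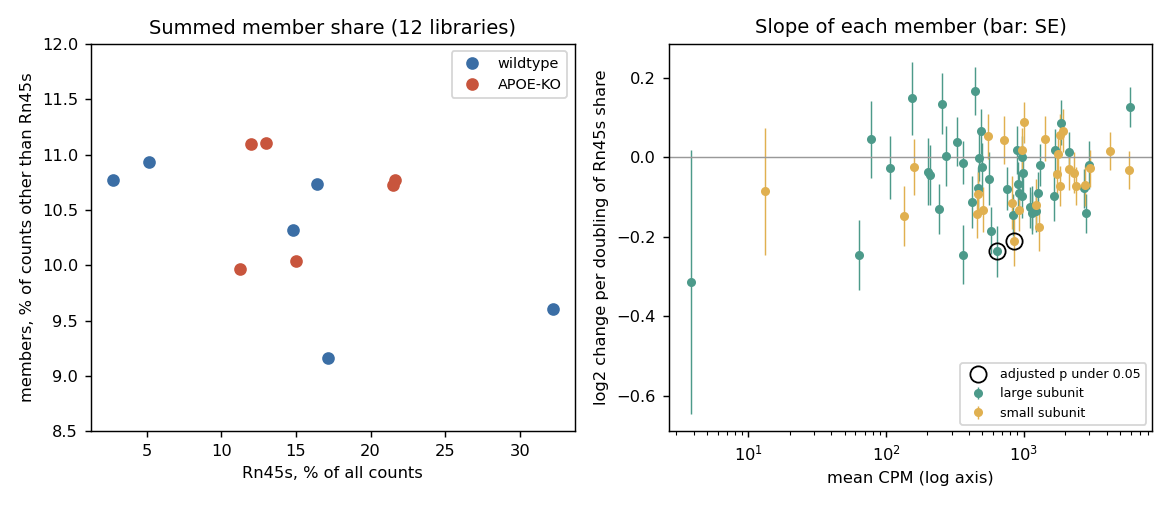
Left, member percentage of the counts outside Rn45s against the Rn45s percentage of each library, wildtype and APOE-KO, with wildtype libraries 3 (2.71%) and 1 (32.2%) at the ends of the axis. Right, slope of each of 72 tested members on the log2 Rn45s share with its SE against its mean CPM (logarithmic axis), with Rpl7a and Rps27a ringed as adjusted p below 0.05.

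As a share of the counts outside Rn45s, the members went with the Rn45s share at r = -0.433 (Spearman's rho -0.420) over the 12 libraries, as a description. The value was -0.687 in the 6 wildtype and 0.152 in the 6 APOE-KO libraries, so the genotypes differed in sign. In the 10 libraries left without wildtype 1 and 3, of both genotypes, it was -0.163, so its size depended in part on those 2. Taken of the whole library total, of which Rn45s is itself a part, it was -0.910. For the summed member CPM, the scale of the other member values, r was -0.206 (rho -0.035) over the 12 libraries and 0.0987 without wildtype 1 and 3.

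The other genes of ribosome making and translation gave no call by genotype either. Tested were 8 ribosomal proteins outside the naming rule, 74 mitochondrial ribosomal proteins and 20 subunits and factors of RNA polymerase I. With them came 47 ribosome biogenesis genes, 35 translation factors and 17 genes of TOP control or the Myc network (Myc, Max and Mxd1). The last were 13 host genes of small nucleolar RNAs and 11 p53 targets. By edgeR's quasi-likelihood test no gene of these lists passed in either direction, beside 1.49% of all genes. At an unadjusted p below 0.05, where 12.1% of all genes lay, the counts were 0, 7, 3, 4, 2, 2, 2 and 1 in that order. Their median log2 fold changes were -0.005, 0.10, -0.07, -0.07, 0.04, 0.02, -0.008 and 0.27. Taf1c, a subunit of the polymerase I selectivity factor, had 19.9 ± 4.25 CPM in wildtype and 11.3 ± 1.54 in APOE-KO libraries (SD, n = 6 each; edgeR adjusted p = 0.114), with no overlap of the groups. Mrpl36, of the mitochondrial large subunit, had 28.9 ± 4.71 and 43.0 ± 5.20 (edgeR adjusted p = 0.114), also without overlap. Surf6, a nucleolar assembly factor, had 23.8 ± 4.70 and 13.3 ± 4.37 (edgeR adjusted p = 0.107). Mxd1, which competes with Myc for Max, had 116 ± 29.5 and 176 ± 29.0 (edgeR adjusted p = 0.0610). Cdkn1a, the p53 target that halts the cell cycle, had 194 ± 33.6 and 274 ± 40.6 (edgeR adjusted p = 0.0754). The other genes with the lowest p of each list had log2 fold changes of -0.24 (Rpl36al), 0.10 (Rpsa), -0.60 (Mrps12), -0.36 (Taf1d), -0.79 (Nop2), 0.38 (Eif3l), -0.34 (Eif5b), -0.56 (Deptor), 0.51 (Snhg15), 0.77 (Snhg6) and 0.48 (Plk2). None of these passed.

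Set against the Rn45s share, where 5.21% of all genes passed by edgeR (3.32% positive, 1.89% negative), the lists held calls in both directions. These calls share the limit given above, since the count over all genes fell to 4 without wildtype library 3 and to 5 without the 3 libraries that stood apart. Of the ribosomal proteins outside the rule 1 of 8 passed, Rpl36al, with a slope of -0.25 (edgeR adjusted p = 0.0275). Of the mitochondrial ribosomal proteins 2 of 74 passed, Mrpl39 (-0.47) and Mrpl53 (-0.33). Of the RNA polymerase I genes 1 of 20 passed, Ubtf, which opens the ribosomal RNA genes for the polymerase (0.29, edgeR adjusted p = 0.0219). Of the biogenesis genes 5 of 47 passed. Ncl, which binds ribosomal RNA in the nucleolus (0.27, edgeR adjusted p = 0.00697), and the helicases Ddx21 (0.23) and Ddx10 (0.36) had positive slopes. Gar1 (-0.37) and Nop10 (-0.26), proteins of the particles that modify ribosomal RNA, had negative ones. Of the translation factors 4 of 35 passed, with positive slopes for Eif3c (0.31), Eif3a (0.27) and Pabpc1 (0.22) and a negative one for Eif4a1 (-0.26). Of the genes of TOP control or the Myc network 2 of 17 passed, Larp4 (0.39) and, of the Myc network, Max (-0.33). Of the snoRNA host genes and p53 targets 0 passed by edgeR. Siglech, of the plasmacytoid dendritic cell markers, had a slope of 0.39 (edgeR adjusted p = 0.0123) and Spib of the same list -0.27 (edgeR adjusted p = 0.0439). Of the cycling cell markers 2 of 8 passed, with negative slopes, and the median slope of that list was -0.134.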

How the data were processed

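RNA of 12 libraries was made with the Lexogen FWD kit for transcript ends, per the labels. The deposited table holds whole-number counts of reads per gene symbol, which the authors did not normalise. The submitters' processing notes name STAR 2.7.8a, featureCounts 1.5.1, R 4.1.0, DESeq2 1.4 and build mm10. The annotation, the strand setting, molecular identifiers and the treatment of reads with several matches are not stated by the sources used here. Groups came from the genotype labels. Of 24499 symbols, 7573 had no read.

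The tests were run with edgeR 4.0.16 in R 4.3.3 (filterByExpr, minimum count 10 and total 15; TMM factors; glmQLFit and glmQLFTest on genotype), limma 3.58.1 and DESeq2 1.42.0, with Benjamini-Hochberg adjustment over all tested genes and a threshold of 0.05. The SE is the absolute log2 fold change over the root of the F statistic, and log2 CPM for spread used a prior count of 2. For the Rn45s slope, Rn45s was taken out and genotype kept in the model. The fits were also run on simulated data, with the outcome not given here. Genes varied independently in that simulation, so it does not cover members that vary together. The common biological coefficient of variation was 30.1%. For counting error only, 3 counts, the limit that a count of 0 allows, stood for 0.612 to 1.26 CPM. That range is on raw library totals, not on the TMM-scaled sizes of the other CPM values. No 2 libraries of the same genotype agreed within sampling noise. Start windows, positions and shared words were computed from RefSeq and GENCODE vM21 tables in Python. The members and lists were chosen with earlier results of these data known. Named members are the 4 most abundant of each subunit, the 4 highest and 4 lowest fold changes, the 3 highest and lowest slopes, the stalk genes, Rps6, Rps27a and name-stem pairs, those nearest 60 reads, and the 2 most and least variable. Rps26, Rps15, Rpl7a and the members named for correlation or sharing, were added after their values were seen. The values of 2 tested members are not reported here, though they are in the counts. Alternatives are given in the closing section.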

Additional observations from a re-analysis of the deposited data

Results flagged for a closer look

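Of 62 groups of 6 libraries checked over 31 values, 2 held a library far from the others, while chance alone sets apart about 1 in 20. Rps4l, the member annotated as a pseudogene, had 4.73 CPM in APOE-KO library 5 and 11.2 to 14.5 in the other 5 APOE-KO libraries. Rpl3 had 586 CPM in APOE-KO library 1 and 399 to 434 in the other 5 APOE-KO libraries.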

How the results depend on the processing

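By genotype, the count of members that passed was 0 under all 12 alternatives and in all 12 fits with 1 library left out; the smallest adjusted p of a member over these fits was 0.127, for Rps24 by edgeR without APOE-KO library 1. The calls over all genes moved, from 160 (116 higher, 44 lower), to 88 (53 higher) with library totals only, 297 (194 and 103) with DESeq2 and 31 (20 and 11) with B and T cell covariates, and the lower ones to 68 with no filter. With 1 library left out they ran from 99 to 230 (72 to 166 higher, 27 to 64 lower), lowest without APOE-KO library 3 (99); the lower ones numbered 27 without wildtype library 5 and 29 with APOE-KO library 6 left out. The replicate block gave 100 calls by genotype (70 higher) and 22 for the Rn45s share (20 positive, 2 negative) with 0 members in either; same-numbered libraries did not deviate together (correlations from -0.077 to 0.0185), and none correlated best with its own number.

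For the Rn45s share, the calls over all genes moved from 559 (356 positive, 203 negative) to 247 (139 and 108) with the share not logged, 164 (94 and 70) with no genotype term, 888 (576 and 312) with DESeq2 and 5 (5 and 0) without the 3 libraries that stood apart. With 1 library left out they ran from 4 to 746 (4 to 458 positive, 0 to 288 negative), with 262 (186 and 76) without wildtype library 1. Members that passed numbered 3, and 0 with no genotype term, 0 without the 3 libraries, 7 with DESeq2 and 0 to 6 with 1 library left out. The cause of these moves was not tested.

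With 1 library left out, the log2 difference of the summed level ran from 0.0455 (without wildtype library 2) to 0.101 (large subunit 0.031 to 0.082, small subunit 0.0593 to 0.119), that of the large to small ratio from -0.0374 to -0.0131 (without APOE-KO library 6), and the positive members from 48 to 61. On the raw totals the differences were 0.0427, 0.028 and 0.0567. Signs reversed for Rplp0 without APOE-KO library 3 (-0.0052; from there to 0.10 over the fits with 1 library left out), Rpl30 without APOE-KO library 6 (-0.068; to 0.66) and Rps4l with B and T cell covariates (0.11) or without the 3 libraries (0.25). The correlation of the member share with the Rn45s share, -0.433, was -0.687 within wildtype, 0.152 within APOE-KO, -0.163 without the 2 libraries farthest from the median and -0.910 of the whole total. Depth limits Rpl30, Rpl34, Rpl39l and Rps4l. Levels of the members with shared words are uncertain, and whether shared sequence lowered their counts was not tested.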
